A study of Mus musculus with 9 samples.

Results

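Cadherins are calcium-dependent adhesion proteins that hold cells together by binding the same or a related cadherin on the neighbouring cell. Classical cadherins join the actin cytoskeleton through catenins, protocadherins act mainly in the contacts and self-recognition of neurons, and the very large Fat and Dachsous proteins bind each other between cells and feed into planar polarity and Hippo signalling. In the developing cerebellum, where Sonic hedgehog (SHH) medulloblastoma arises from granule neuron precursors, members of the family are known for neuron sorting, migration and synapse formation.

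The genes described here are the 94 of 22353 symbols in the deposited insertion table that start with Cdh and a digit or with Pcdh, or equal Fat1 to Fat4 or Dchs1, with Pcdh15 left out. They hold 5 type I cadherins, 13 type II cadherins, 4 other cadherins, 11 non-clustered protocadherins, 55 clustered protocadherins of chromosome 18, and a group of 6 with Fat1 to Fat4, Dchs1 and Cdh23. Membership rests on names alone, but the family was chosen with earlier results of these data known.

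The study mapped transposon insertions in SHH medulloblastomas of mice of the genotype lazy_piggy, to look for genes that maintain the tumour. The mobile element joins Sleeping Beauty (SB) and piggyBac (PB) parts, and insertion sites were read from the SB ends (IR libraries), from the PB ends (PB libraries) or from the boundary of both parts (JX libraries), each with a left and a right end. The authors' sample sheet gave 72 animals treated with tamoxifen (53 with the transposon donor on chromosome 10 and 19 on chromosome 7; listed days of 4 to 249, median 49.5) and 47 untreated animals (37 and 10; listed days of 0). All of them carried the same genotype label, and transposase alleles, promoters, strain and age are not stated in what was used here. The sheet also names 5 control tumours, 9 control DNAs and 8 animals whose arm is missing or conflicting, and these are described apart. An animal is the replicate and is named by a code, T with tamoxifen and N without, whose number carries no order. Whole-tumour DNA was used, so a share of counts cannot tell the share of cells with an insertion from the efficiency of amplification.

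Each value is a raw count of reads for 1 insertion position in 1 library, in mm9. The 9 lanes held 3961094 lines from 832 libraries. Counts per animal ran from 295999 to 6337624 in IR, from 116836 to 2025775 in JX and from 1714 to 2853048 in PB. Calling a site in an animal took 10 counts or more and 1% or more of the count of that animal's top site in the same kind of library. Where a site met this in several animals, it was given to the animal with the highest share. The counts carry no molecular identifiers, so intervals below cover the number of animals and not the amplification.

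Part of the JX libraries went against their labels, which bears on Cdh7 below. In each of the 16 left JX libraries of lane 4, 0.00159% to 0.0721% of the counts lay at the called IR sites of the animal on the label, while the best other animal took 4.30% to 93.6%. That other animal shared the lane in 16 of 16 cases, and for 14 of the 16 the pairing was reciprocal. In the 104 left JX libraries of the other lanes the labelled animal took up to 97.9%, and another animal took more in 3. The right JX libraries of lane 4 went with their labels in 15 of 16 cases. Over all ends and lanes outside those 16 libraries, another animal took more than the labelled one in 27 of 704 libraries. No library was moved to another animal here, and results that rest on such libraries are given with and without them.

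**Figure D1:**
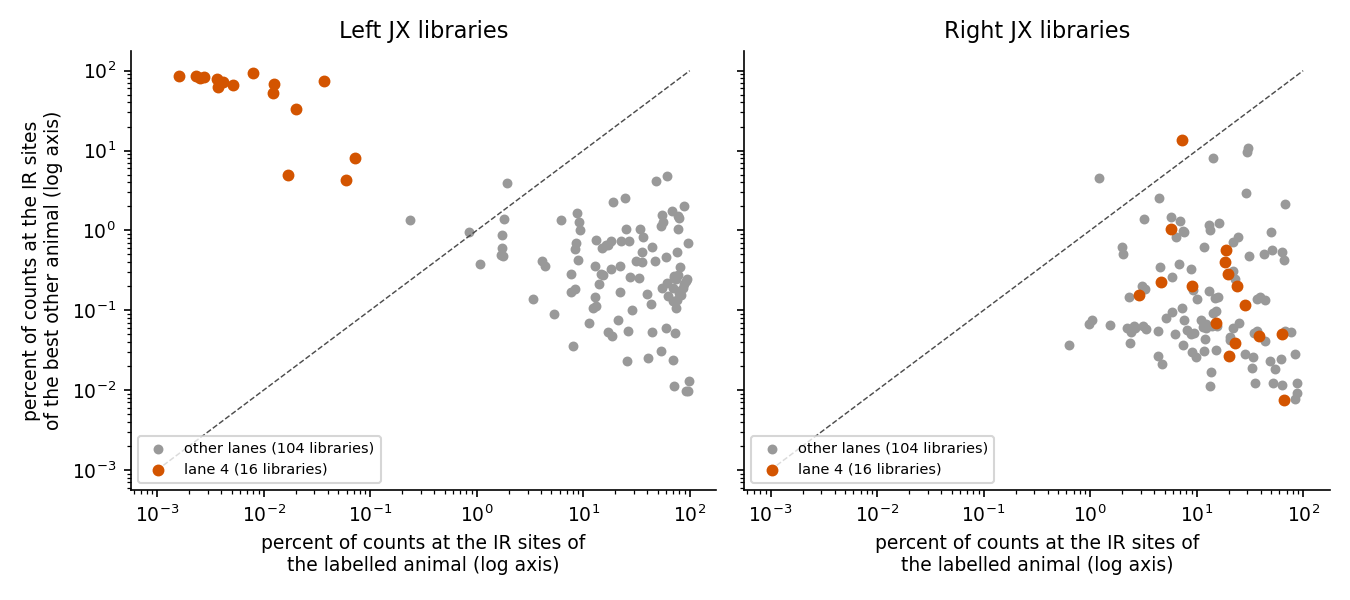
Each point is a JX library of an animal of either arm, with the percent of its counts at the called IR sites of its labelled animal on the x axis and at those of the best other animal on the y axis (both log axes), and the dashed line marks equal shares. The 16 left libraries of lane 4 all lie above the line, at 0.0721% or less on the x axis, while 15 of the 16 right libraries of lane 4 lie below it.

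A called site was found in 21 of the 94 members (22.3%), against 20.8% of all genes in the table (the background). In IR 7 members had a called site (7.45%, background 6.35%), in JX 20 (21.3%, background 16.4%) and in PB 9 (9.57%, background 7.83%). These shares lie near the background, and the median number of animals per gene was 0 for the members and for all genes in each kind of library. The mean was 0.0851 animals per member in IR against 0.0773 per gene over all genes, 0.309 against 0.224 in JX, and 0.128 against 0.0969 in PB.

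Most hits fell outside the clustered protocadherins. Of the 55 clustered protocadherins, 1 had a called site in IR, 2 in JX and 1 in PB. Of the other 39 members, IR sites hit 6 (15.4%, background 6.35%), JX sites 18 (46.2%, background 16.4%) and PB sites 8 (20.5%, background 7.83%). The difference of these 39 from the background was not tested. The table listed a median of 1 IR position per clustered protocadherin and 84 per other member, against 19 per gene over all genes. Per 1000 listed positions, the members, clustered and other together, had 1.72 called sites in IR against 2.16 over all genes. The rates were 31.3 against 31.4 in JX and 8.74 against 8.87 in PB. Gene length was not used here, and its part in the number of positions per gene was not tested.

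The 51 called sites of the members fell into 39 loci, counting sites of 1 animal within 300 bp once, in 26 animals. Of the 39 loci, 29 were in animals with tamoxifen and 10 in animals without. A called site in all 3 kinds of library was found at 4 loci, in 2 kinds at 3 loci and in 1 kind at 32. No member site lay on the donor chromosome of its animal, where 25.2% of all called IR sites, 15.6% of JX sites and 24.2% of PB sites lay. This absence is nearly fixed by where the genes lie. Cdh23 on chromosome 10 and Dchs1 on chromosome 7 are the only members on a donor chromosome. The comparison with all sites thus tells nothing about member insertions as such.

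**Figure D2:**
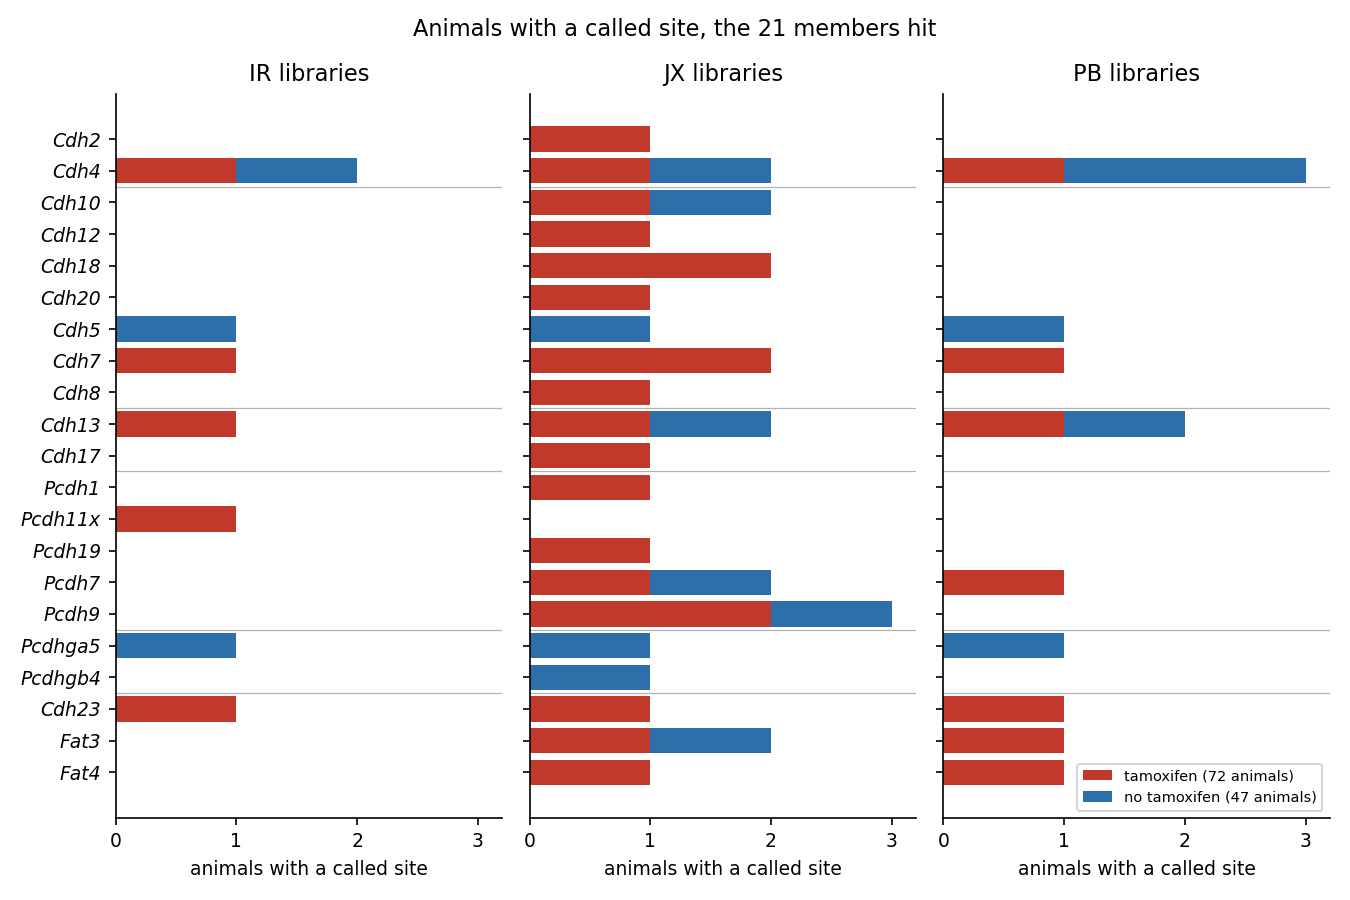
Bars give the number of animals with a called site (x axis) for each of the 21 members hit (y axis, grouped from type I cadherins at the top to Fat and Cdh23 at the bottom by grey lines), in IR, JX and PB libraries, split by arm. No member exceeded 3 animals in a kind of library, reached by Pcdh9 in JX and Cdh4 in PB, and most bars stand at 1 animal.

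Among the classical cadherins, a site in Cdh7, a type II cadherin of neurons and neural crest, took the largest share of counts. It lay in intron 2 of Cdh7, at position 111903665 of chromosome 1, and the table lists it as disrupting the coding sequence. In animal T24, which had tamoxifen and was sequenced in lane 4, the site had 1786612 IR counts, 814237 from the left end and 972375 from the right. That was 38.3% of the IR counts of the animal and its highest IR site. The PB libraries of T24 had 101420 counts at position 111903705 (59.5% of its PB counts, its highest PB site) and 2745 at position 111903587 (1.61%). These PB positions lay on either side of the IR position.

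In JX the same Cdh7 site went to another animal of lane 4. The left JX library labelled T68 held 609432 counts of it, and T68 had 59.1% of its JX counts there, but 3 counts from its right JX end, 298 IR counts within 300 bp and 0 PB counts. The left JX library labelled T24 held 55 counts of the site and the right one 135006, together 12.5% of the JX counts of T24. Of the library labelled T68, 93.6% of counts lay at called IR sites of T24, and of that labelled T24, 68.2% lay at those of T68. Without the left JX libraries of lane 4, the site was credited to T24, with 42.1% of its remaining JX counts. The site was thus high in the IR, PB and right JX libraries labelled T24, and in the left JX library labelled T68.

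The Cdh7 site was listed at low counts in many further animals. Within 300 bp of it, 46 animals or DNAs had IR counts, 44 had JX counts and 6 had PB counts. In lane 4 all 16 animals listed it in IR and in JX, and lanes 6, 7, 8 and 9 listed it in 2, 3, 13 and 12 animals in IR. T24 held 99.1% of the IR counts of the site. Outside lane 4 the highest JX values were 4743 counts in a control tumour, 3072 in T09 (0.965% of its JX counts), 1205 in T56 and 897 in T19, with 0 PB counts in each of these 4. Over the animals of both arms, counts within 300 bp of the site made 67.9% of all member counts in IR, 88.4% in JX and 61.6% in PB, so sums of counts over the family rest mostly on this site.

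Cdh4, or R-cadherin, a type I cadherin of the developing nervous system, was hit in 4 animals over the 3 kinds of library, 2 in each arm. In N39, an untreated animal, a site in intron 2 at position 179409419 of chromosome 2 was the highest site of all 3 kinds. It had 455950 IR counts (13.5%), 12127 JX counts (4.93%) and, at position 179409448, 15116 PB counts (23.2%). The IR counts came nearly all from the left end, with 455698 against 252 from the right, and the PB counts came from the left end alone. In N22, also untreated, a PB site in the same intron at position 179401293 had 170 counts (2.12%), where the nearest IR or JX count lay 255347 bp away.

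In T68 a site 481.717 kb upstream of Cdh4, at position 179152363, had 4346 IR counts (0.144%), 67 JX counts and 1065 PB counts (0.287%). T02 had called JX sites in intron 4 (121 counts, with 435 IR and 423 PB counts beside it) and intron 2 (67 counts) of Cdh4. So N39 stands apart from the other 3 animals by its share of counts, and its site and those of N22 and T02 lie in the gene body.

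Cdh2, or N-cadherin, the main type I cadherin of neural tissue, had a single called site, in intron 2 in T02, with 173 JX counts from the left end and no IR or PB count within 300 bp. Cdh1, or E-cadherin, the type I cadherin of epithelia, had no called site in any kind of library. Below the call, Cdh1 positions were listed in the IR libraries of 22 animals and in the JX and the PB libraries of 11 animals each.

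Cdh5, or VE-cadherin, the cadherin of endothelial junctions, was hit in N31. The site in intron 2 at position 106638790 of chromosome 8 had 15829 IR counts (0.314%) and 1945 JX counts (0.686%), and the PB site at position 106638511 had 679 counts (0.645%). Without the left JX libraries of lane 4, Cdh5 was also hit in N17, an untreated animal of that lane, with 511 JX counts (0.376%) at position 106680811. The other type II cadherins hit were Cdh8, Cdh10, Cdh12, Cdh18 and Cdh20, in JX alone and at low counts. Cdh18 was hit in T44 (90 counts, intron 1) and T26 (63 counts, intron 3). Cdh10 was hit 51.122 kb downstream in T04 (224 JX counts, with 1316 IR and 113 PB counts within 300 bp) and 19.227 kb downstream in N22 (35 counts). Of the 10 JX sites of type II cadherins, 7 lay at positions whose counts were spread over many animals, described below.

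Cdh13, or T-cadherin, which is held in the membrane by a lipid anchor and lacks the catenin-binding tail, was hit in 4 animals at 4 different sites. In N38 a site in intron 2 at position 121092348 of chromosome 8 had 1268 JX counts (0.467%), and a PB site at position 121092067 had 339 counts (0.664%). The same animal had 13864 IR counts there, below 1% of its highest IR site. In T42 a JX site in intron 1 had 7835 counts (0.980%), all from the left end, with 40 IR counts. T46 had 269 IR counts in intron 2 with no JX or PB count, and T40 had 27 PB counts in intron 6 with 201 IR counts. Within a kind of library a site is credited to a single animal, so called sites there cannot be shared. The JX position of T42 was listed in 2 animals with tamoxifen, T42 included. The IR position of T46 was listed in 2 animals with tamoxifen, T46 included, and in 1 control tumour. Cdh17, a cadherin of liver and intestine, had 87 JX counts 70.932 kb downstream in T69.

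Among the non-clustered protocadherins, Pcdh9 was the member hit in most animals in JX, with 2 of 72 animals with tamoxifen and 1 of 47 without. T23 had 711 JX counts in intron 3 (0.211%) and 291 IR counts. T05 had 77 JX counts 972.999 kb downstream, and N22 had 38 JX counts 83.482 kb upstream, at a position listed in 28 animals. Pcdh7 was hit in JX in T02 (136 counts, 70.258 kb downstream, with 98 IR and 24 PB counts) and N43 (120 counts, intron 1, listed in 99 animals). In PB Pcdh7 was hit in T67, with 88 counts in intron 1 (0.988%) and the nearest IR or JX count 3203 bp away. Pcdh11x had 381 IR counts in intron 5 in T46 and nothing in JX or PB. Pcdh19, a protocadherin gene of the X chromosome, had 502 JX counts 23.097 kb upstream in T06, with 299 IR and 594 PB counts.

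Clustered protocadherins of the alpha cluster share constant exons with each other, and so do those of the gamma cluster, unlike the beta genes. A site in the alpha or gamma cluster can thus lie in the introns of many transcripts, and the table names 1 gene per position. In N09 a site listed as intron 1 of Pcdhga5, at position 37861080 of chromosome 18, had 31959 IR counts (1.15%), 1853 JX counts (0.633%) and, at position 37860890, 340 PB counts (0.360%). Of the IR counts 31912 came from the right end. The other called site of the cluster, listed as intron 1 of Pcdhgb4, had 100 JX counts in N03 at a position listed in 69 animals, and 25 of these counts came from a left JX library of lane 4.

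In the group of Fat genes and Cdh23, a site in Cdh23 was the largest. Cdh23 encodes a very long cadherin of the tip links of inner ear hair cells. In T12, whose donor is on chromosome 7, the site in intron 2 at position 60138206 of chromosome 10 had 77870 IR counts (2.92%) and 28047 JX counts (3.22%). The PB site at position 60138248 had 13813 counts (2.97%). The 3 shares are close to each other, and in each kind of library most counts came from the right end. The table lists this site as not disrupting the coding sequence, unlike those of Cdh7, Cdh4, Cdh5 and Pcdhga5.

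Fat4, a receptor and ligand partner of Dchs1, was hit in T61 and T40. In T61 a PB site in intron 1 had 152 counts (0.131%), with 14036 IR and 63 JX counts. Of the PB counts 97.4% came from libraries that held more counts at the IR sites of another animal, and without such libraries Fat4 had no called PB site. In T40 the JX site lay 51.708 kb downstream at a position listed in 108 animals. Fat3 was hit in T09 by a PB site in intron 21 (107 counts, 1.02%, with 1746 IR counts), in T46 by 26 JX counts in intron 2, and in N40 by 175 JX counts in intron 2. Of all counts at the N40 position, 99.2% lay in a control tumour, with 22814. Fat1, Fat2 and Dchs1 had no called site, with counts below the call in 55, 41 and 26 animals in IR.

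**Figure D3:**
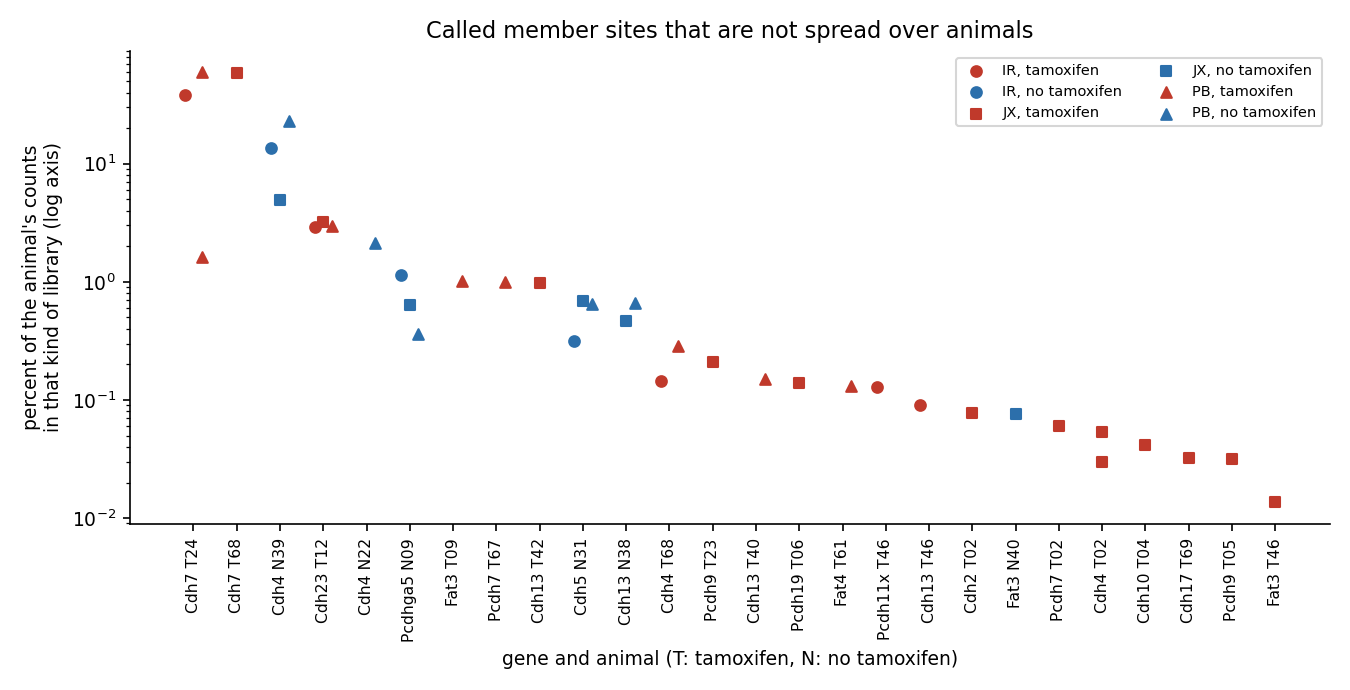
Each point is a called member site that is not spread over animals, placed by gene and animal (x axis, ordered by the highest share) and by its percent of the animal's counts in that kind of library (y axis, log). Circles are IR, squares JX and triangles PB, red with tamoxifen and blue without; the highest point of T24 and that of T68 at Cdh7 reach 59.5% and 59.1%, the Cdh4 points of N39 run from 4.93% to 23.2%, and shares run down to 0.0136% for Fat3 in T46.

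The arms were compared by the percent of animals with at least 1 called member site. In IR it was 5.56% with tamoxifen (4 of 72, exact binomial 95% interval 1.53% to 13.6%) and 6.38% without (3 of 47, 1.34% to 17.5%). In JX it was 20.8% (15 of 72, 12.2% to 32.0%) and 17.0% (8 of 47, 7.65% to 30.8%). In PB it was 9.72% (7 of 72, 3.999% to 19.0%) and 10.6% (5 of 47, 3.55% to 23.1%). Over all kinds it was 25% (18 animals, 15.5% to 36.6%) and 17.0% (8 animals, 7.65% to 30.8%). The intervals of the arms overlap in each case. The median JX depth per animal was 441808 counts with tamoxifen and 287429 without, and its part in the JX percents was not tested.

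The order of the arms in JX was not stable. It turned under 5 of the 13 alternatives run. It stood at 4.17% with tamoxifen and 8.51% without when sites were called at 5% of the highest site in place of 1%, and at 12.5% and 14.9% when sites outside gene bodies were left out. Without the left JX libraries of lane 4, 12 of 47 untreated animals had a called member site (25.5%) and 15 of 72 with tamoxifen (20.8%), and leaving out every library that held more counts at another animal's IR sites gave the same percents. The 5 sites that became called without those of lane 4 were all in lane 4, 4 of them in untreated animals, with 30 to 135006 counts, and 3 of them lay at positions spread over animals. They were the Cdh7 site in T24, the Cdh5 site in N17, and the spread positions of Cdh8 in N34 (62 counts), Cdh7 in N27 (55 counts) and Pcdh18 in N28 (30 counts), a protocadherin with no called site otherwise. Over all kinds the arms then stood at 25% and 25.5%. Within the 9 lanes, leaving out the 5 treated and 2 untreated animals sequenced in 2 lanes, the JX percent was higher with tamoxifen in 5, lower in 3 and equal in 1. The IR percent was higher in 3 lanes and lower in 3, and the PB percent was higher in 2 and lower in 4. Weighted over lanes, the percent with tamoxifen minus that without was 0.57 points in IR, 8.69 in JX, 0.43 in PB and 12.4 over all kinds, against -0.83, 3.81, -0.92 and 7.98 unweighted, so in IR and PB the order turned. With donor chromosome 10 the JX percents were 20.8% and 16.2%, and with chromosome 7 they were 21.1% (4 of 19) and 20% (2 of 10). When shared sites were credited among the animals with a chromosome 7 donor alone, these became 26.3% (5 of 19) and 40% (4 of 10), the reverse order. Treated animals with a called member site had listed days of 13 to 233 (median 41), and those without had 4 to 249 (median 58).

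For genes with 3 or more animals hit, the arms were set against each other by a two-sided Fisher's exact test, adjusted by Benjamini-Hochberg over the 40 genes of IR, 244 of JX and 56 of PB that qualified. No gene passed an adjusted p of 0.05 (background 0% in each kind), and 0, 2 and 1 genes had an unadjusted p below 0.05. Of the members, Pcdh9 was tested in JX (2 with tamoxifen, 1 without, exact p = 1, adjusted p = 1) and Cdh4 in PB (1 and 2, exact p = 0.561, adjusted p = 1). An exact test stratified by lane, added after seeing the data, gave no gene past the threshold either, with 0, 4 and 3 genes at an unadjusted p below 0.05, and p = 0.606 for Pcdh9 and p = 1 for Cdh4 (adjusted p = 1 for both). With 3 animals the smallest p of Fisher's test without strata is 0.0592 here, so no member could have passed that test. The test stratified by lane can go lower, as for Adcy2 in PB (0 and 3 animals, stratified exact p = 0.0385). Its smallest possible p for the members was not computed. A preference for an orientation relative to the gene could not be tested, since no member had the 6 sites required and the most was 2 in IR and 3 in JX and PB. The listed orientation mostly followed the end that was read in JX and PB, but not in IR. At called sites with both ends, the left and right JX libraries listed opposite orientations in 94.3%, the PB libraries in 96.5% and the IR libraries in 49.7%.

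The called member sites lay mostly in introns. In IR 7 of 8 did (87.5%, against 58.4% over all genes), in JX 20 of 30 (66.7% against 54.3%) and in PB 12 of 13 (92.3% against 59.0%). No member site lay in an exon, where 3.51% of IR sites, 3.08% of JX sites and 4.75% of PB sites of all genes lay. Of the intron sites, 6 of 7 in IR lay in intron 1 or 2, 14 of 20 in JX and 10 of 12 in PB, against 41.3%, 42.3% and 43.6% over all genes. These counts include the same insertion in several kinds of library, and they were not tested. Intron lengths were not used, and several cadherin genes are known for long first introns.

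**Figure D4:**
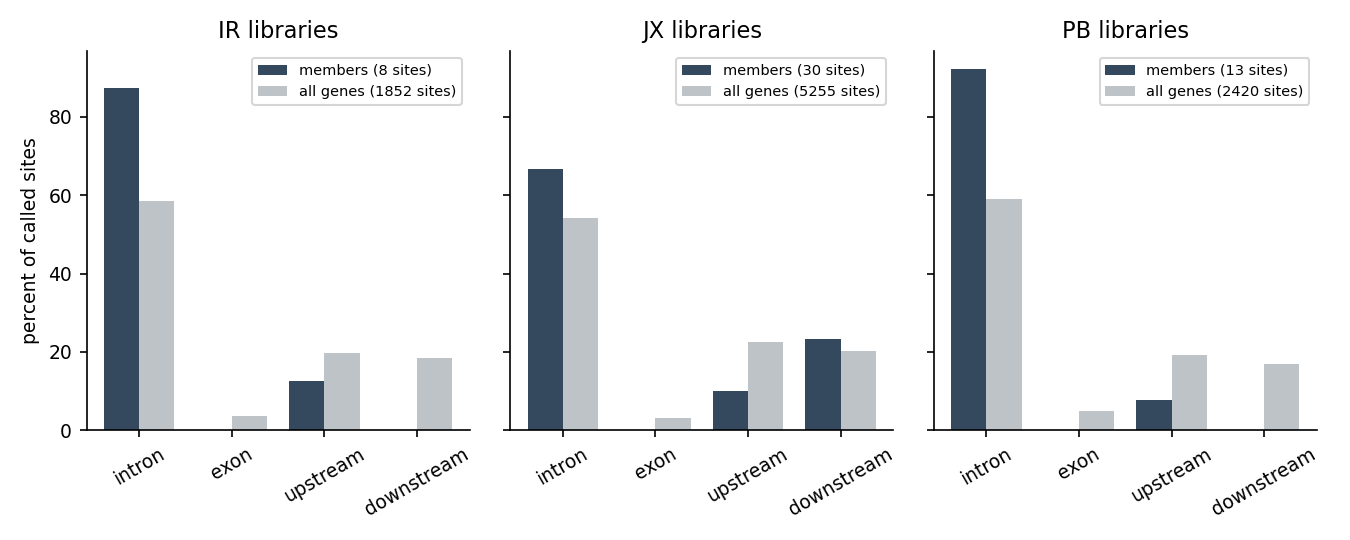
Bars give the percent of called sites (y axis) by the part of the gene that the table lists (x axis) for the members (dark) and for all genes (light) in IR, JX and PB libraries. Introns held 87.5%, 66.7% and 92.3% of the member sites against 58.4%, 54.3% and 59.0% over all genes, and no member site was in an exon.

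Part of the JX sites were positions that many animals share. A position was called spread where at least 3 animals listed it and none held over 50% of its counts. This covered 12 of the 30 JX sites of the members (40%, against 45.0% over all genes) and none of the 8 IR or 13 PB sites. The 12 positions were listed in 17 to 108 animals or DNAs (median 64), and 11 of them were listed in control DNA. Their counts in the credited animal were 35 to 172, or 0.0137% to 0.0908% of its JX counts. The same positions were listed in 3 to 70 animals in IR and in none in PB.

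Spread sites were the only called sites of 7 members in JX, since without them 13 of the 20 members hit in JX remained, and the percent of animals hit in JX became 13.9% with tamoxifen (10 of 72) and 10.6% without (5 of 47). The spread sites were those of Fat4, Cdh20, Pcdh7 (intron 1), Pcdhgb4, both Cdh18 sites, Cdh7 (intron 4), Cdh12, Pcdh1, Cdh8, Pcdh9 (upstream) and Cdh10 (in N22). Without spread positions and over all kinds, 27 loci in 15 members remained.

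**Figure D5:**
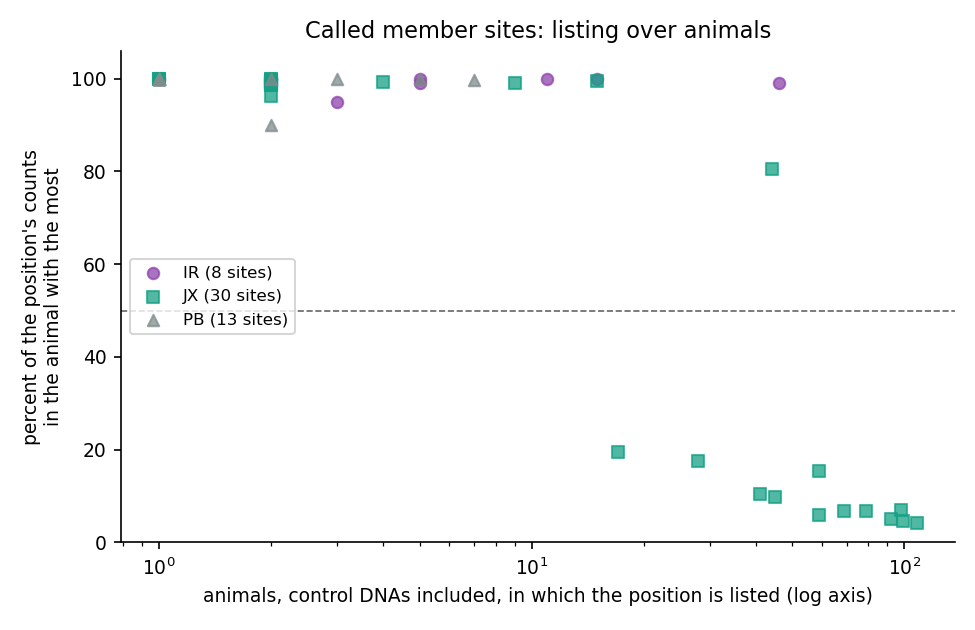
Each point is a called member site, with the number of animals or DNAs that list its position on the x axis (log) and the percent of its counts in the animal with the most on the y axis, and the dashed line marks 50%. The 12 JX points below the line are listed in 17 or more animals and have at most 19.5% of their counts in 1 animal, while the sites above the line have at least 80.4%.

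The spread positions have a regular spacing. Among 13362 JX positions of all genes and intergenic regions that are spread and listed in at least 10 animals, 1766 pairs lay within 400 bp, and 1329 of these pairs (75.3%) were exactly 117 bp apart, while the next most frequent distance, 11 bp, had 25 pairs. At the members, the Fat4 position of T40 and the Cdh10 position of N22 each had a further shared position 117 bp away, listed in 15 animals, and the Cdh8 position of T69 had one 113 bp away, listed in 16. The other 9 spread member sites had none within 400 bp that 10 or more animals listed.

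Some animals held several low member sites. T02 had 4 loci and T46 had 4, N22 and T69 had 3 each, and 19 of the 26 animals had 1. T46 had the lowest IR depth of the tamoxifen arm, 295999 counts, and 334 called IR sites, and T02 had 689 called JX sites. The part of depth and of the number of called sites in these loci was not tested.

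Among genes known to work with the family, none passed the Fisher test in any kind of library. Of 14 catenins and junction partners, 3 had a called site in IR (21.4%, background 6.35%), 6 in JX (42.9%, background 16.4%) and 4 in PB (28.6%, background 7.83%). The difference from the background was not tested, and listed positions per gene and the donor chromosome were not looked at for this list. Of the 21 JX sites of this list, 10 were spread positions, and none of its 7 IR or 9 PB sites were. Ctnna3, the alpha-T catenin, was hit in 4 animals with tamoxifen and 2 without in JX (exact p = 1, adjusted p = 1), 2 and 1 in IR, and 3 and 1 in PB, with a highest share of 6.97% of an animal's IR counts. Ctnna2, the neuronal alpha-N catenin, was hit in 1 animal with tamoxifen and 4 without in JX (exact p = 0.0787, or 0.0238 stratified by lane, adjusted p = 1 in both), and in 2 and 0 in PB. Ctnnd2, or delta-catenin, was hit in 2 animals with tamoxifen and 0 without in each of the 3 kinds.

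Of a list of 20 other superfamily genes in the table, Clstn2, a calsyntenin of synapses, was the single one hit. It was hit in 0 animals with tamoxifen and 2 without in each kind (5% of the list). Pcdh15, which was left out of the members, is not on this list either, although it was hit. Its IR sites fell to 5 treated and 0 untreated animals (Fisher's exact p = 0.155, adjusted p = 0.739, and exact p = 0.314 stratified by lane). Pcdh15 lies on chromosome 10, a donor chromosome, and the part of this in its hits was not tested. The JX libraries gave 2 treated and 2 untreated animals for Pcdh15, while the PB libraries gave 2 treated and 1 untreated. Of 13 genes of Fat, Dachsous and Hippo signalling, none was hit in IR or PB (background 6.35% and 7.83%). In JX 5 of them were hit (38.5%, background 16.4%). Of their 7 sites 2 lay at spread positions, and no site held more than 0.0912% of an animal's JX counts. The difference from the background was not tested. Among the 5 was Stk3, a Hippo kinase, in 2 animals with tamoxifen and 1 without (exact p = 1, adjusted p = 1).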

How the data were processed

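Sheared tumour DNA was joined to splinkerette adaptors, cut with BamHI and amplified into IR, JX and PB libraries, per the labels' protocols. The deposited values are raw counts per position and library as the authors left them, on mm9 (from the submitters' processing notes). The aligner, counting rule, annotation and filters were, however, not given in the sources used here. Further columns, deposited in the authors' sample sheet, give the arm, lane, donor chromosome and listed days.

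Libraries of an animal were summed over ends and lanes within each kind, positions within 10 bp were merged around the highest count, and sites were called as described above with Python 3.11.15, pandas 2.3.3 and scipy 1.17.1. Animals with conflicting arms were left out, and 1 ID spelled in different ways was joined. Fisher's exact test was run on genes with 3 or more animals hit. On simulated data with 200 genes at 30% against 2% of animals, it recovered 99% in IR (1419 genes), 97.5% in JX (3659) and 99% in PB (1750). The test stratified by lane, with animals in several lanes as strata of their own, recovered 97.5%, 96% and 98.5% in IR, JX and PB. Members and gene lists were chosen with earlier results of these data known. The genes named are the members hit in most animals per kind (at least 2), the 3 with the lowest p, the 3 with the highest share, Cdh1, Cdh2, Fat1 to Fat4 and Dchs1, and up to 3 genes of each partner list; further members in the text were picked with their values known. Alternatives varied the call, the merging, the crediting, the gene assignment, the donor chromosome and the libraries.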

Additional observations from a re-analysis of the deposited data

Results flagged for a closer look

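The following called sites lie in samples that entered no comparison of the arms and exceed the counts of the same position in control DNA. In control tumours, a site in intron 2 of Fat3 had 22814 JX counts (2.11% of the JX counts of that tumour), and a site listed as intron 1 of Pcdha4-g had 2033 JX counts in the same tumour (0.188%). The Cdh7 intron 2 site of T24 had 4743 JX counts in another control tumour (0.513%), and in a tumour other than these it had 239 JX counts and 185 IR counts. In animals with no usable arm, the same Cdh7 site had 328 JX counts in 1 animal and 103 in another, and intron 1 of Cdh15, a cadherin of muscle, had 290 IR counts in an animal that alone listed the position. The Cdh7 values lie in lanes 8 and 9, while T24 is in lane 4, and the source of these counts was not tested.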

How the results depend on the processing

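No gene passed the adjusted Fisher threshold under any alternative that was run. Calling sites at 0.1% of the highest site gave 32, 38 and 33 members hit in IR, JX and PB. The percents of animals with and without tamoxifen were then 29.2% and 27.7% for IR, 56.9% and 53.2% for JX, 34.7% and 36.2% for PB, and 68.1% and 66.0% over all kinds. Calling at 5% gave 4, 6 and 4 members, with 4.17% and 8.51% in JX and 6.94% and 10.6% over all kinds, the reverse of the order at 1%. Counting a site in every animal gave 36.1% in JX and 37.5% over all kinds with tamoxifen, and 4 of 5 member genes then passed the orientation test in JX, because the same position was counted in many animals. Without spread positions 13 members were hit in JX. With donor chromosome 7 alone, 2, 11 and 4 members were hit, and 26.3% of animals with and 40% without tamoxifen had a site, in JX and over all kinds alike, because shared sites were then credited among those animals alone. The order of the arms turned under 2 of 13 alternatives in IR, 5 of 13 in JX, 1 of 13 in PB and 4 of 12 over all kinds. Without the left JX libraries of lane 4, and without every library that held more counts at another animal's IR sites (both chosen after seeing the data), 25.5% of untreated animals had a JX site in a member. Of the main results set against the alternatives, 25 moved and 239 stayed within 1.5 times or within the interval. These 239 include results of the Fisher and orientation tests with few or no members to test, which could hardly move. The PB libraries are shallow, down to 1714 counts per animal, which limits what can be called there. The replicate numbers of the labels are lanes. With lane as a replicate block (an exact test stratified by lane, chosen after seeing the data), 0 genes passed in IR, JX and PB, as without it.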

Other observations

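In control DNA, JX sites of 13 members were called 31 times, in 4 DNAs, and 30 of these calls lay at positions spread over animals. A position called in several DNAs counts once for each of them, unlike in the arms. There was also 1 called IR site. That IR site lay in intron 5 of Cdh6, with 4089 IR counts and 13 JX counts in a single DNA and in no animal of the arms. Cdh6, Cdh9, Cdh15, Pcdh10 and Pcdha4-g had called sites outside the arms and none within them.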
